A study of Mus musculus with 35 samples.

Results

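The genes described here encode the subunits of the proteasome, its activators and the factors that assemble it, measured as messenger RNA and as ribosome footprints in mouse leukemia cells. They were chosen by name: protein-coding genes present in both count tables whose symbol begins with Psma, Psmb, Psmc, Psmd, Psme, Psmf or Psmg and a digit, without the 3 immunoproteasome subunits Psmb8, Psmb9 and Psmb10. This gave 47 of the 55487 genes in the tables: 15 of the constitutive and tissue-restricted core (Psma1 to Psma8, Psmb1 to Psmb7) plus Psmb11, 6 ATPases, 3 other base subunits and 8 lid subunits of the cap, 7 assembly factors, 6 activators or regulators, and Psmc3ip, which shares only the beginning of its name and is a partner of meiotic recombinases rather than a part of the proteasome. The rule used no measured value. The genes lie on 16 chromosomes, 10 of them on chromosome 11, and some lie side by side, as do Psme1 (chr14:55578123-55581529, plus strand, GRCm38) and Psme2 (chr14:55587441-55591113, minus strand).

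The cells were acute myeloid leukemia cells driven by the MLL-AF9 fusion and marked with GFP, expanded in culture from a terminally ill mouse and injected into male recipient mice, 8 to 10 weeks old, at 1000000 cells each. All 4 groups therefore share the fusion, the marker and the host. The cells carried either a control guide (sgScramble) or a guide to knock out Ogfod1 (sgOgfod1), the gene of an oxygenase that hydroxylates a ribosomal protein. Recipients received either a standard amino acid (AA) diet and PBS injections (vehicle) or a diet free of the branched-chain amino acids together with cytarabine (100 mg/kg on 5 days) and doxorubicin (3 mg/kg on the first 3 days), the regimen labelled 5+3, and are called treated from here on. Diet and chemotherapy changed together, so their contributions cannot be told apart. Mice were killed when chemotherapy had its greatest effect, GFP-positive viable cells were sorted from the bone marrow, and a part of each lysate went to RNA sequencing and the rest to ribosome profiling. Each library came from 1 mouse. RNA libraries numbered 5 for vehicle sgScramble, 5 for vehicle sgOgfod1, 7 for treated sgScramble and 6 for treated sgOgfod1, and footprint libraries numbered 3, 3, 4 and 2 in the same order. All recipients received descendants of that mouse's leukemia, so the libraries of a group are separate hosts of a shared leukemia.

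The proteasome is the protease that degrades most ubiquitin-tagged proteins. Its core, the 20S particle, is a barrel of alpha rings, which gate the entrance, and beta rings, which hold the catalytic sites: Psmb6 provides the caspase-like, Psmb7 the trypsin-like and Psmb5 the chymotrypsin-like activity. The 19S cap binds ubiquitin chains, removes them through the deubiquitinase Psmd14 and unfolds the substrate with a ring of the ATPases Psmc1 to Psmc6. Dedicated chaperones, Psmg1 to Psmg4 for the core and Psmd5, Psmd9 and Psmd10 for the base of the cap, build the particle. Subunits are needed in fixed proportions, and their genes are induced together by the transcription factor Nfe2l1 when proteasome activity falls short.

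Start-site sequences from RefSeq (GRCm38.p6), covering 250 bases before to 50 bases after each transcription start, were matched for 39 of the 47 members. They were searched on both strands for 3 short motifs: the core of the antioxidant response element that Nfe2l1 and Nfe2l2 bind (TGACNNNGC), the CCAAT box of NF-Y (CCAAT) and the core bound by ETS factors (CGGAAG). The ETS core was found for 23 of the 39 members (59.0%), against 32.7% of the 11050 protein-coding genes tested for RNA with a RefSeq window and 16.9% of all 32851 windows. It was present for all 6 matched lid subunits, all 3 base subunits and 4 of 5 ATPases, but for 2 of 7 alpha subunits, 2 of 4 beta subunits, 2 of 6 activators and 2 of 6 assembly factors. The CCAAT box was found for 14 of 39 members (35.9%, against 42.7% of tested coding genes), with 5 of the 7 alpha subunits among them. The antioxidant core was found for 6 of 39 (15.4%, against 16.7%), namely Psmb5, Psmb6, Psmc6, Psmd9, Psmd12 and Psme4. A match describes the letters in the window and is not evidence of binding.

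The 6 windows printed here are examples that all carry a motif, so they do not represent the members that changed. Psmd14, Psmd12 and Psmc1 stand for the cap with its ETS cores and Psma2 for the alpha ring with its CCAAT box. Psmb5 and Psmb6 stand for the catalytic subunits with an antioxidant core, and neither passed the threshold in the main tests of treatment below. The window of Psmc5, which was called in sgScramble RNA and footprints, held none of these motifs and is not printed. Each is the 150 bases ending just before the first annotated exon, or in Psmb6 just before the RefSeq start, 5′ to 3′ on the gene's strand, with motif matches on either strand in capitals. On the minus strand of the window the ETS core reads CTTCCG. The positions are chr2:61711544-61711693 (plus strand), chr11:107479334-107479483 (plus), chr12:100110004-100110153 (plus), chr13:14613090-14613239 (plus), chr14:54618023-54618172 (minus) and chr11:70525207-70525356 (plus), all in GRCm38.
Psmd14: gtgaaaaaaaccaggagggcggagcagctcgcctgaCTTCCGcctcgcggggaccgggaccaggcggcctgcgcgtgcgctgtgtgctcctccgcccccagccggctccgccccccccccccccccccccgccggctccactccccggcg
Psmd12: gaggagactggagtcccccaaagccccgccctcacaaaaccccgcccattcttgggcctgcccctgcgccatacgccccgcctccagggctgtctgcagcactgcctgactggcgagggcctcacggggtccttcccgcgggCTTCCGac
Psmc1: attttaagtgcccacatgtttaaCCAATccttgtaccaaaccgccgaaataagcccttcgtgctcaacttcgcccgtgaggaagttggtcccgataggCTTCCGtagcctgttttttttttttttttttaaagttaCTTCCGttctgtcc
Psma2: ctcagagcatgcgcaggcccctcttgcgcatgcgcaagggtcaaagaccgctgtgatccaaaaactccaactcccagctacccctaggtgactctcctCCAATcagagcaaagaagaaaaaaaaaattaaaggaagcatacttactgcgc
Psmb5: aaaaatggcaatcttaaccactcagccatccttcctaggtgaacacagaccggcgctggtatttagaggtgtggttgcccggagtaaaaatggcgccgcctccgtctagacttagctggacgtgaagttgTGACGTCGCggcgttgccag
Psmb6: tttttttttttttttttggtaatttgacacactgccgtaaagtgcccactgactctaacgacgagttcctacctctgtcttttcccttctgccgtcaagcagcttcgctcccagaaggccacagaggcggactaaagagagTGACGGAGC
No match overlapped another in these windows. Psmd14 and Psmd12 carried 1 ETS core each, Psmc1 carried 2 ETS cores and a CCAAT box, and the antioxidant core ended close to the start site in Psmb5 and at the end of the printed window in Psmb6.

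RNA libraries held 31.9 to 142.7 M counted reads (M, 1000000 reads; median 56.1 M) and footprint libraries 5.71 to 14.6 M (median 9.27 M), of which the 47 members took 243500 to 1264000 and 20870 to 55080 reads. Ogfod1 itself was at 12.4 to 17.5 CPM (counts scaled to 1000000 per library) in the footprints of the sgScramble libraries and at 1.44 to 2.98 CPM in the sgOgfod1 libraries, without overlap. Leukemia and myeloid progenitor markers were present in every group, 10 of 10 above 1 CPM on average. Summed RNA of 8 neutrophil markers ranged from 5930 to 16050 CPM under vehicle and from 12980 to 77610 CPM under treatment. In the treated sgScramble group, 10 tissue macrophage markers summed to 3066, 1392 and 1673 CPM in replicates 4, 6 and 7 and to 329 to 459 CPM in the other 4 replicates, against 356 to 473 CPM in vehicle sgScramble. Treated sgScramble replicate 4 and treated sgOgfod1 replicate 3 had been found apart from the other RNA libraries in earlier work on these data. In bulk libraries of this kind, fewer cells of a type and less RNA per cell cannot be told apart.

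Treatment of sgScramble leukemia was accompanied by higher proteasome messenger RNA, with 11 of the 15 calls in the cap. Of 45 members with enough counts to test, 15 were higher at an adjusted p under 0.05 and 0 were lower, where 8.6% of all 21474 genes tested were higher and 4.34% lower (edgeR quasi-likelihood test, Benjamini-Hochberg adjustment over all genes). The median log2 fold change was 0.44 over the members and -0.01 over all genes tested, and 42 of the 45 were above 0. All 3 base subunits (Psmd1, Psmd2, Psmd4), 4 of 6 ATPases (Psmc1, Psmc2, Psmc3, Psmc5) and 4 of 8 lid subunits (Psmd3, Psmd7, Psmd12, Psmd14) rose, against 1 of 7 alpha subunits (Psma2), 2 of 7 beta subunits (Psmb2, Psmb3), 1 of 6 activators (Psme3) and 0 of 7 assembly factors. Median log2 fold changes were 0.56 for ATPases, 0.46 for base, 0.39 for lid, 0.44 for alpha, 0.47 for beta and 0.15 for assembly genes, and whether roles differ was not tested.

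**Figure D1:**
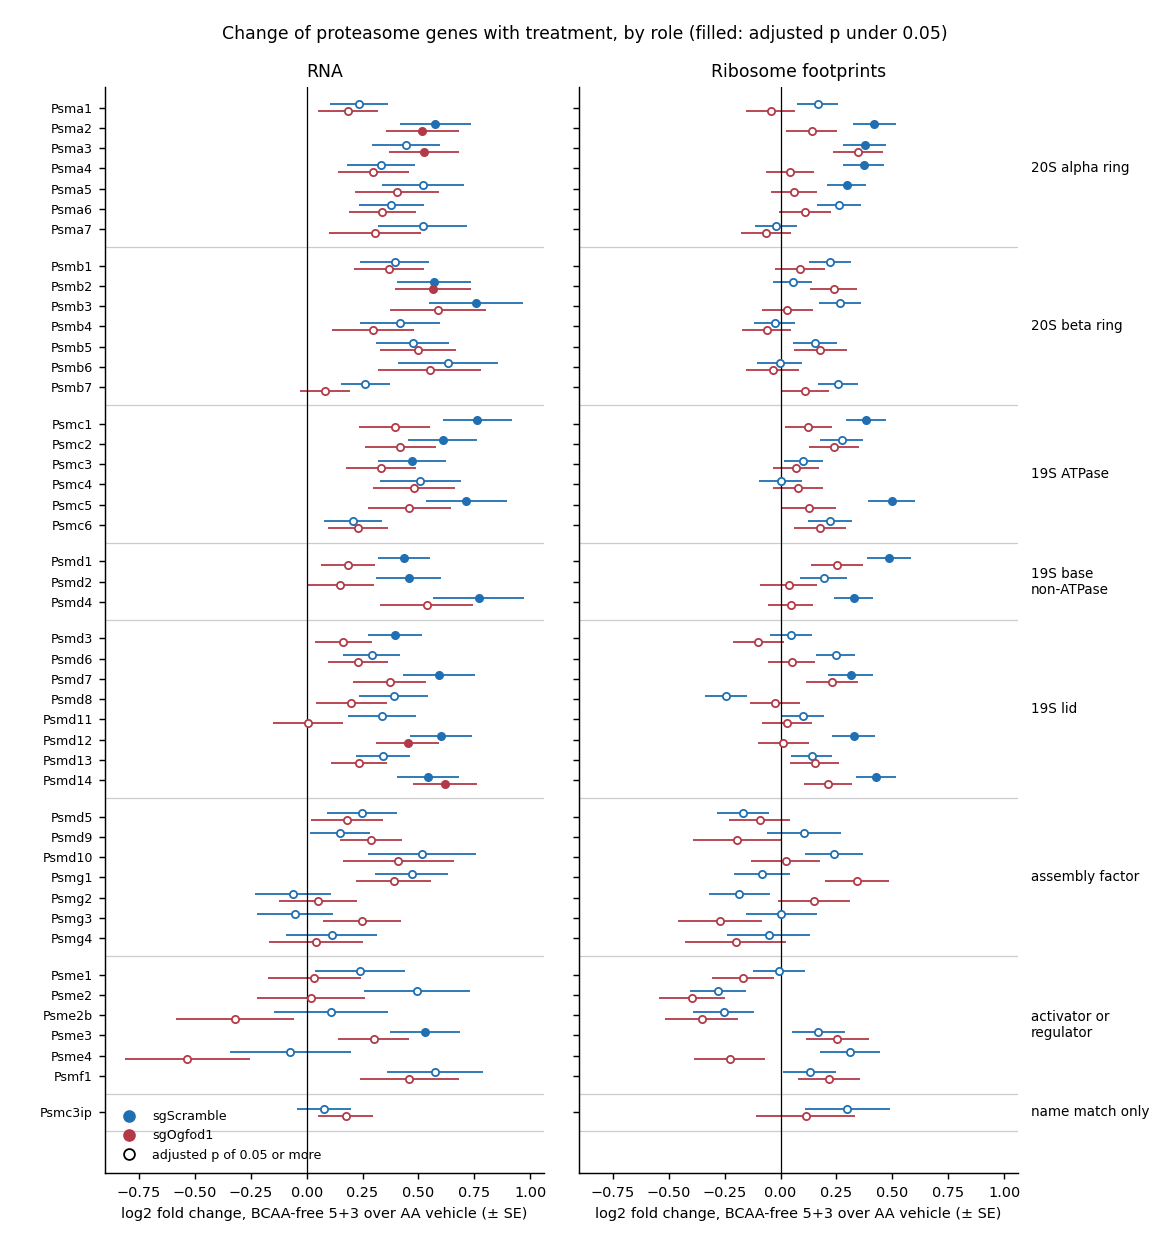
Log2 fold changes of treated against vehicle with their standard errors for the 45 tested members in RNA (left) and ribosome footprints (right), for sgScramble and sgOgfod1, ordered by role in the particle; filled points passed an adjusted p of 0.05. RNA points lie mostly to the right of 0 in both genotypes, with 15 filled for sgScramble and 5 for sgOgfod1, and footprint points lie closer to 0, with 11 and 0 filled. The RNA panel draws on all 23 RNA libraries and the footprint panel on 12 libraries, so the panels do not compare the same set of mice.

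Among lid subunits, Psmd14, the deubiquitinase that strips ubiquitin chains from bound substrates (chr2:61711694-61800376), stood at 292, 318, 256, 246 and 296 CPM in the 5 vehicle sgScramble libraries, and its lowest, median and highest values in the 7 treated sgScramble libraries were 331, 390.0 and 596 CPM. Every treated library lay above every vehicle library, with replicate 4 far above the rest, and the log2 fold change was 0.54 ± 0.14 (SE; adjusted p = 0.011). Psmd12, a scaffold subunit of the lid (chr11:107479484-107504362), was measured at 134, 133, 120.0, 126 and 133 CPM under vehicle and at 161, 186 and 279 CPM (lowest, median, highest) under treatment. The ranges were again apart, and the log2 fold change was 0.60 ± 0.14 (SE; adjusted p = 0.0056). Psmd7, the catalytically inactive partner of Psmd14, rose by 0.59 ± 0.16 (SE; adjusted p = 0.017) on the same scale, also without overlap between groups.

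Of the ATPases, which unfold substrates and feed them into the core, Psmc1 had the smallest p of all members. It was at 122, 115, 109.9, 119 and 111 CPM in vehicle sgScramble and at 152, 172 and 303 CPM (lowest, median, highest) in treated sgScramble, a log2 fold change of 0.76 ± 0.16 (SE; adjusted p = 0.0022). The treated values split by mouse: replicates 4, 6 and 7 were at 303, 232 and 193 CPM, and the other 4 at 152 to 172 CPM, still above every vehicle library. Psmc5 (log2 fold change 0.71 ± 0.18 SE, adjusted p = 0.011) and Psmc2 (0.61 ± 0.15 SE, adjusted p = 0.011) rose without overlap as well. Among base subunits, the ubiquitin receptor Psmd4 was at 104, 91.1, 84.4, 95.2 and 84.4 CPM under vehicle and at 101, 132 and 296 CPM (lowest, median, highest) under treatment. Its log2 fold change of 0.77 ± 0.20 (SE; adjusted p = 0.014) was the largest of the 45 tested members, with replicate 4 at 296 CPM against 165 CPM in the next library. The large scaffold Psmd1 rose by 0.44 ± 0.12 (SE; adjusted p = 0.016).

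Of the 14 constitutive core subunits 3 rose, Psma2, Psmb2 and Psmb3. Psma2, an alpha subunit (chr13:14613240-14674236), was at 379.8, 379, 299, 321 and 355 CPM in vehicle sgScramble and at 369, 525.6 and 774 CPM (lowest, median, highest) in treated sgScramble. The ranges overlapped through the lowest treated library, and the log2 fold change was 0.58 ± 0.16 (SE; adjusted p = 0.018). The catalytic subunit Psmb5 (chr14:54614119-54618022) was at 93.2, 76.9, 72.2, 76.4 and 70.5 CPM under vehicle and at 80.3, 110.0 and 158 CPM (lowest, median, highest) under treatment. Vehicle replicate 1 lay inside the treated range, and the log2 fold change of 0.47 ± 0.16 (SE; adjusted p = 0.057) did not pass the threshold. For the other catalytic subunits the log2 fold changes were 0.63 ± 0.22 (SE; adjusted p = 0.064) for Psmb6 and 0.26 ± 0.11 (SE; adjusted p = 0.12) for Psmb7, so none of the 3 passed. The tissue-restricted subunits Psma8, known from testis, and Psmb11, known from thymic epithelium, were not tested: they reached at most 12 and 18 counts in any RNA library and at most 2 in any footprint library.

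**Figure D2:**
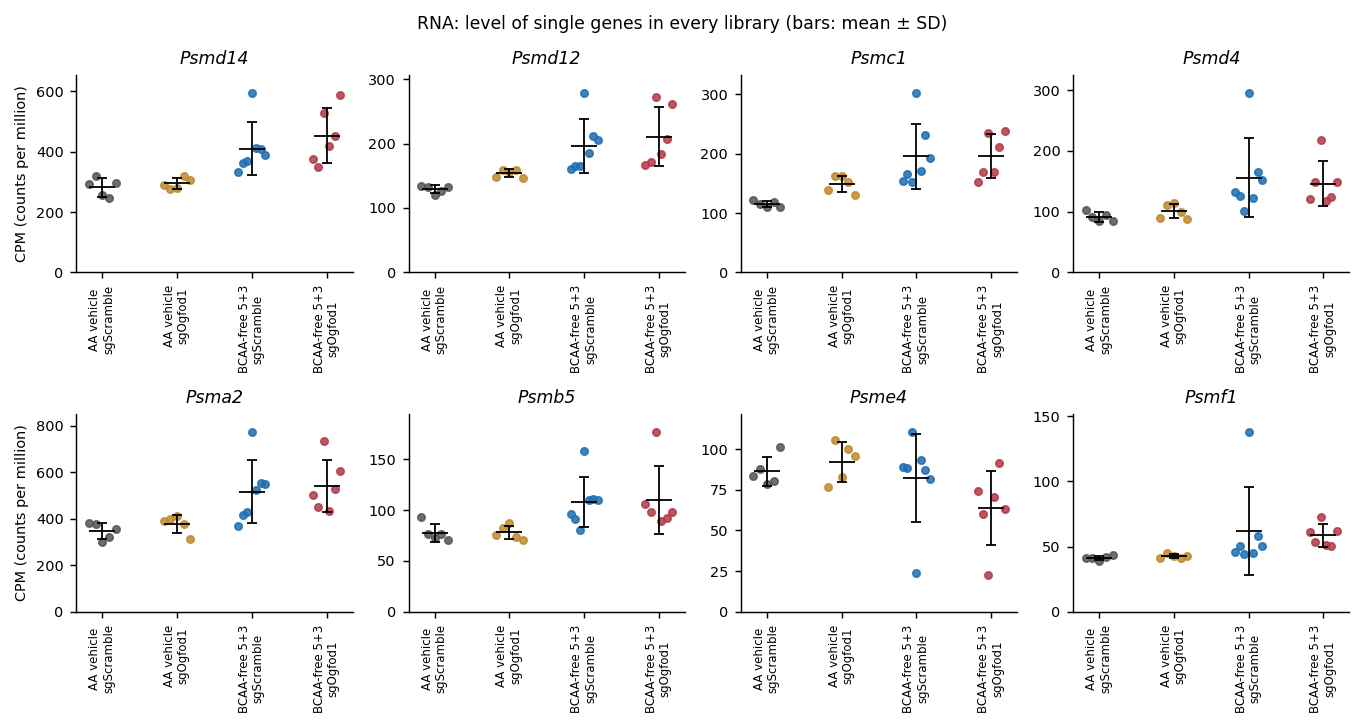
RNA level in CPM of 8 members in each of the 23 RNA libraries, by group, with mean and standard deviation. Psmd14, Psmd12 and Psmc1 lie higher in every treated than in every vehicle sgScramble library, Psmb5 overlaps between those groups, and treated sgScramble replicate 4 is the highest of its group for all but Psme4, where it is the lowest.

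Of the 6 activators and regulators 1 passed. Psme3, the nuclear activator PA28 gamma, rose by 0.53 ± 0.16 (SE; adjusted p = 0.027) on the log2 scale in sgScramble, with no overlap between groups. The interferon-inducible activator subunits gave 0.24 ± 0.20 (SE; adjusted p = 0.48) for Psme1 and 0.49 ± 0.24 (SE; adjusted p = 0.18) for Psme2, and Psme4, the nuclear activator PA200, one of -0.07 ± 0.27 (SE; adjusted p = 0.9). Psme4 was at 83.6, 87.9, 78.3, 80.5 and 101 CPM under vehicle and at 24.0, 88.4 and 111 CPM (lowest, median, highest) under treatment, the lowest being replicate 4. Psmf1, an inhibitor of the core, was higher in all 7 treated than in all 5 vehicle libraries, yet its log2 fold change of 0.57 ± 0.21 (SE; adjusted p = 0.081) did not pass. In total the groups did not overlap, with treated higher, for 10 of 45 members, against 5.94% of all genes tested. Psme2b, an intronless near-copy of Psme2, had a log2 fold change of 0.11 ± 0.26 (SE; adjusted p = 0.84), and reads of these 2 genes may have been split between them, so both are uncertain. Psmc3ip was at 0.08 ± 0.12 (SE; adjusted p = 0.74).

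Of the assembly factors, 0 of 7 passed with treatment in either genotype or assay. In sgScramble RNA, Psmg1, a chaperone of the alpha ring, was at 53.0, 48.8, 39.8, 39.3 and 45.0 CPM under vehicle and at 47.4, 58.6 and 91.4 CPM (lowest, median, highest) under treatment, with a log2 fold change of 0.47 ± 0.16 (SE; adjusted p = 0.058). Its partner Psmg2 was at 55.5, 69.5, 59.2, 54.4 and 63.4 and 41.7, 56.2 and 81.1 CPM in the same groups (-0.06 ± 0.17 SE, adjusted p = 0.87). The groups overlapped for both partners. The second chaperone pair gave -0.05 for Psmg3 and 0.11 for Psmg4, and the base chaperones 0.25 for Psmd5, 0.15 for Psmd9 and 0.52 for Psmd10. In sgOgfod1 RNA the 7 genes ranged from 0.04 to 0.41. Footprint log2 fold changes ranged from -0.18 to 0.24 in sgScramble and from -0.27 to 0.34 in sgOgfod1, with Psmg1 at -0.08 and 0.34.

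In sgOgfod1 leukemia 5 members rose with treatment and 0 fell, where 5.69% of all genes tested were higher and 4.18% lower. The 5 were the lid subunits Psmd14 and Psmd12, the alpha subunits Psma2 and Psma3, and the beta subunit Psmb2, and the median log2 fold change over the 45 members was 0.30, with 43 above 0. Psmd14 was at 291, 277, 280.3, 318 and 306 CPM in vehicle sgOgfod1 and at 351, 436 and 588 CPM (lowest, median, highest) in the 6 treated sgOgfod1 libraries, without overlap, a log2 fold change of 0.62 ± 0.14 (SE; adjusted p = 0.0073). For Psma2 the vehicle values were 390.3, 400.3, 412, 378 and 314 CPM and the treated values 434, 515 and 734 CPM, also apart, with 0.52 ± 0.16 (SE; adjusted p = 0.045). Psmd12 was at 148, 159, 156, 159 and 147 CPM under vehicle, higher than in any vehicle sgScramble library, and at 166, 196 and 272 CPM under treatment, with 0.45 ± 0.14 (SE; adjusted p = 0.045). Log2 fold changes were 0.53 ± 0.16 (SE; adjusted p = 0.035) for Psma3 and 0.57 ± 0.17 (SE; adjusted p = 0.036) for Psmb2. Groups were apart for 9 of 45 members with treated higher, against 4.41% of all genes tested. Marker genes of other cells moved in the same comparison: 7 of 10 tissue macrophage markers and 5 of 8 neutrophil markers rose (median log2 fold changes 3.49 and 1.70 over each list), 4 of 6 erythroid markers fell (median -3.09), and of 10 leukemia and progenitor markers 3 fell and 1 rose. Macrophage markers summed to 260 to 331 CPM under vehicle and 157.9 to 809 CPM under treatment. The part of these cells in the sgOgfod1 result was not tested.

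No ATPase or base subunit passed in sgOgfod1 (0 of 6 and 0 of 3), although the median log2 fold change of the ATPases was 0.41. Catalytic subunits gave 0.50 ± 0.17 (SE; adjusted p = 0.062) for Psmb5, 0.55 ± 0.23 (SE; adjusted p = 0.13) for Psmb6 and 0.08 ± 0.11 (SE; adjusted p = 0.68) for Psmb7. Among activators the values were 0.03 for Psme1, 0.02 for Psme2, 0.30 for Psme3 and -0.53 for Psme4, and the inhibitor Psmf1 was at 0.46. The smaller number of calls does not show a smaller response, because the test of the difference itself called 0 members at an adjusted p under 0.05, with 0 of 45 at an unadjusted p under 0.05 and a median difference of -0.11 (sgOgfod1 minus sgScramble). That test called 0.0% of all genes, and DESeq2 called 0 members in it too.

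Under vehicle, RNA of no member passed the test between genotypes, and the log2 differences were small and nearly all positive. edgeR called 0 of 45 members, 2 had an unadjusted p under 0.05, DESeq2 also called 0, and 0.116% of all genes were called. The median log2 difference was 0.13, above 0 for 44 of 45 members. Between the same groups, summed marker RNA did not overlap for erythroid cells (0.908 to 2.67 CPM in vehicle sgScramble and 8.23 to 18.2 CPM in vehicle sgOgfod1), stromal and endothelial cells (100.3 to 115 and 67.1 to 85.8 CPM) and macrophages (356 to 473 and 260 to 331 CPM). Their part in these differences was not tested. Psmc1 was at 139, 162, 162, 153 and 130.2 CPM in vehicle sgOgfod1, above all 5 vehicle sgScramble libraries (log2 difference 0.37 ± 0.16 SE, adjusted p = 1). Psmd7, Psmd1 and Psmd12 were separated in the same way, with log2 differences of 0.31, 0.28 and 0.25, so 4 of 45 members did not overlap, against 2.41% of all genes. Under treatment the genotypes differed in 0 members (1 at an unadjusted p under 0.05, 0 by DESeq2), where 0.391% of all genes were called, and the median log2 difference was 0.03.

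The number of RNA calls depended on which libraries were used. In sgScramble, 15 became 21 without the 2 libraries that stood apart (median log2 fold change 0.30), 6 in the 12 mice that also have footprints (median 0.18), and 1 with a term for library numbers from 17 up, which mark 8 treated libraries and no vehicle library. Leaving out single libraries gave 7 calls without vehicle sgScramble replicate 3, 24 without treated sgScramble replicate 3 and 26 without treated sgOgfod1 replicate 3. The 3 treated sgScramble mice without footprints are replicates 4, 6 and 7, those with high macrophage markers. Without the 2 libraries that stood apart, the sgOgfod1 count went from 5 to 13, of which 12 were higher and Psme4 was lower (log2 fold change -0.34). Leaving out 1 library gave 16 calls without treated sgScramble replicate 4, 3 without treated sgScramble replicate 5 or 7 or any vehicle sgScramble library, and 1 without treated sgOgfod1 replicate 3 or 6 or any vehicle sgOgfod1 library. Psmd14 kept its call in both genotypes whichever single library was left out. In sgScramble it lost its call with the library number term (log2 fold change 0.34, adjusted p = 0.195 by edgeR), under which 1 of the 15 calls was left, and in the mice with footprints (0.33, adjusted p = 0.0659). In sgOgfod1, 1 of the 5 calls was left without the filter on low counts, 1 with the library number term and 1 in the mice with footprints, and in each case it was Psmd14 (log2 fold changes 0.63, 0.48 and 0.52). The part of the marker-positive cells in these values was not tested. Members also have short coding sequences, with a median of 792 bases against 1371 bases for the 14335 tested protein-coding genes, across which the RNA log2 fold change of treatment correlated with coding length at a Spearman rho of -0.259 in sgScramble and -0.302 in sgOgfod1. Over the 8897 of these genes above 10 CPM rho was -0.395 and -0.476. Within the members rho was 0.0962 and -0.155 (45 genes, which share libraries and are not replicates).

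Ribosome footprints of several alpha, ATPase, base and lid subunits were also higher in treated sgScramble leukemia. Treatment was accompanied by higher footprints for 11 of 45 members and lower footprints for 0, where 8.12% of the 18290 genes tested were higher and 7.44% lower. The median log2 fold change was 0.17 over members and -0.01 over all genes tested, with 34 of 45 above 0. Protein-coding genes took 47.7 to 56.6% of the counts of a footprint library, against 96.4 to 97.5% in RNA. Over the 11481 tested protein-coding genes the median footprint log2 fold change was -0.08. The members that rose were 4 of 7 alpha subunits (Psma2, Psma3, Psma4, Psma5), 2 of 6 ATPases (Psmc1, Psmc5), 2 of 3 base subunits (Psmd1, Psmd4) and 3 of 8 lid subunits (Psmd7, Psmd12, Psmd14). No beta subunit, activator or assembly factor passed. Groups were apart with treated higher for 20 of 45 members, which with 3 against 4 libraries is also true of 15.1% of all genes tested. They were apart with treated lower for Psmd5, the lid subunit Psmd8, Psme2 and Psme2b. The ratios of means, treated over vehicle, were 0.89, 0.84, 0.82 and 0.84. None of them passed the test. The share of all genes apart in that direction was not computed, so these members cannot be set against it.

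Psmd14 footprints were at 94.6, 83.7 and 89.9 CPM in vehicle sgScramble and at 114, 117, 129 and 122 CPM in treated sgScramble, a log2 fold change of 0.43 ± 0.09 (SE; adjusted p = 0.0054). Psmd1 was at 89.6, 95.4 and 90.4 CPM under vehicle and at 136, 125, 121 and 132 CPM under treatment (0.49 ± 0.10 SE, adjusted p = 0.0042). In both genes all 4 treated libraries lay above all 3 vehicle libraries, and the treated libraries were close to each other. Psmc5 was at 64.0, 56.2 and 60.3 and then 75.2, 88.7, 83.9 and 92.2 CPM (0.50 ± 0.11 SE, adjusted p = 0.0054). The other called ATPase, Psmc1, was at 71.2, 72.9 and 77.0 CPM under vehicle and 99.2, 102, 94.1 and 89.1 CPM under treatment (0.38 ± 0.09 SE, adjusted p = 0.0087). Neither ATPase overlapped between groups. Psmd4 rose by 0.33 ± 0.09 (SE; adjusted p = 0.017).

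In the alpha ring, Psma2 footprints stood at 138, 137 and 140.4 CPM under vehicle and at 185, 207, 178 and 169 CPM under treatment, a log2 fold change of 0.42 ± 0.10 (SE; adjusted p = 0.0083) with no overlap. Psma4 and Psma3, whose tail helps to gate the core, rose by 0.37 ± 0.09 (SE; adjusted p = 0.012) and 0.38 ± 0.10 (SE; adjusted p = 0.014). Psmb6, the caspase-like subunit, was at 50.9, 45.0 and 50.4 CPM and 50.1, 52.2, 48.7 and 43.7 CPM, with a log2 fold change of -0.00 ± 0.10 (SE; adjusted p = 0.99), and the groups overlapped fully. Psmb5 was at 98.1, 103 and 92.4 CPM and 104, 118, 108 and 105 CPM, apart by a narrow margin, with 0.15 ± 0.10 (SE; adjusted p = 0.31), and Psmb7 gave 0.26 ± 0.09 (SE; adjusted p = 0.063). Footprints of these 3 genes are uncertain because annotated pseudogenes held counts that may come from them: Psmb5-ps held 25.0% of the footprint counts of the pair, but 0.202% of the RNA counts. The corresponding footprint shares were 12.1% and 18.8% for the 2 Psmb6 pseudogenes and 6.57% for Psmb7-ps2. With its pseudogene added, Psmb5 averaged 127.8 ± 6.91 CPM (SD, n = 3) in vehicle and 146.2 ± 7.22 CPM (SD, n = 4) in treated sgScramble, and Psmb6 averaged 65.5 ± 5.79 and 66.9 ± 4.70 CPM.

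Activator footprints were -0.01 for Psme1, -0.28 for Psme2, 0.17 for Psme3 and 0.31 for Psme4 as log2 fold changes, none past the threshold, with 0.13 for the inhibitor Psmf1 and 0.30 for Psmc3ip. Counts of calls were 6 without vehicle sgScramble replicate 2 or 5, 5 without vehicle sgScramble replicate 3, and 5 with the term for library numbers. When protein-coding genes alone were fitted, 19 members were called with a median of 0.25. In the same libraries the 8 neutrophil markers summed to 4454 to 4980 CPM under vehicle and 7000 to 16100 CPM under treatment, and 10 macrophage markers summed to 115 to 122 CPM under vehicle and 113.5 to 172 CPM under treatment, and their part in the footprint result was not tested.

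**Figure D3:**
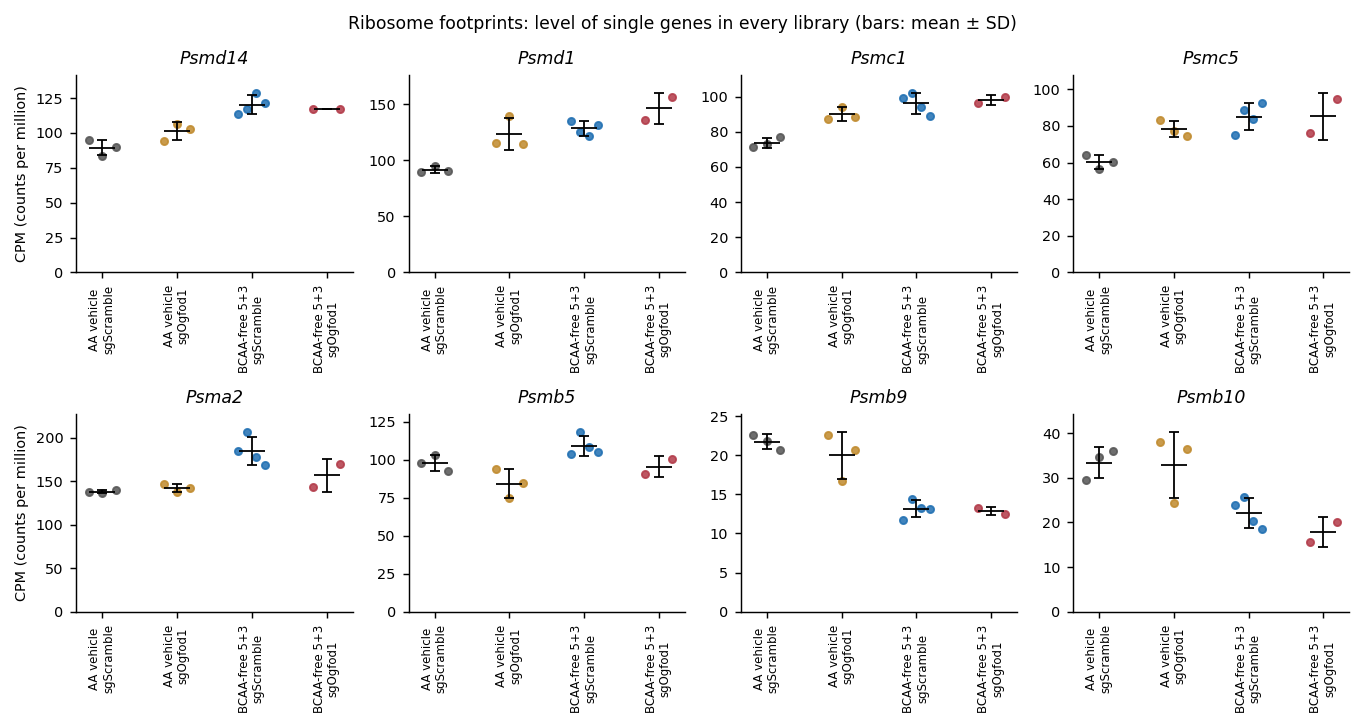
Footprint level in CPM of 6 members and of the immunoproteasome subunits Psmb9 and Psmb10 in each of the 12 footprint libraries, by group, with mean and standard deviation. Psmd14, Psmd1, Psmc1, Psmc5 and Psma2 are higher in all 4 treated than in all 3 vehicle sgScramble libraries, and Psmb9 and Psmb10 are lower.

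In sgOgfod1, footprints of 0 of 45 members passed with treatment (edgeR; 7 at an unadjusted p under 0.05, 1 called by DESeq2), where 4.65% of all genes were higher and 3.56% lower. The comparison holds 3 vehicle and 2 treated libraries. The median log2 fold change was 0.06, with 31 of 45 above 0. Psmd14 was at 93.9, 107 and 103 CPM under vehicle and at 117 and 117 CPM under treatment (0.21 ± 0.11 SE, adjusted p = 0.25), so both treated libraries were above all vehicle libraries. Psma2 overlapped between groups, at 147, 138 and 142 against 143 and 171 CPM. Psma3 came closest to the threshold, at 0.35 ± 0.11 (SE; adjusted p = 0.067), and was called when protein-coding genes alone were fitted (log2 fold change 0.43). Psmb5, Psmb6 and Psmb7 gave 0.18, -0.03 and 0.11, and Psme2 gave -0.39. Leaving out vehicle sgOgfod1 replicate 4 gave 2 calls. The test of the difference between genotypes called 0 members (5 at an unadjusted p under 0.05, 0 by DESeq2), against 0.0656% of all genes, and the median difference was -0.14.

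Between genotypes under vehicle, 1 member passed in footprints. Psmd1, the base scaffold, was at 115, 139.7 and 115 CPM in vehicle sgOgfod1 against 89.6, 95.4 and 90.4 CPM in vehicle sgScramble, a log2 difference of 0.42 ± 0.10 (SE; adjusted p = 0.0498). Macrophage marker footprints summed to 114.6 to 121.9 CPM in vehicle sgScramble and to 76.4 to 95.2 CPM in vehicle sgOgfod1, and their part in this difference was not tested. Psmd1 was the 1 member called of 45, with 9 at an unadjusted p under 0.05, and 1.81% of all genes were called. The call is at the edge of the threshold: it was lost without any one of 10 of the 12 libraries, with DESeq2 size factors, without the count filter and with the replicate number as a block, and DESeq2 itself called 2 members. Psmc5 stood at 83.1, 77.4 and 74.5 CPM and Psmc1 at 87.1, 94.4 and 88.7 CPM in vehicle sgOgfod1, both above all vehicle sgScramble libraries, with log2 differences of 0.38 ± 0.11 (SE; adjusted p = 0.09) and 0.29 ± 0.09 (SE; adjusted p = 0.13). Psma4, Psma5, Psmb7, Psmd1, Psmd2, Psmd4, Psmd6, Psmd7, Psmd12 and Psme3 were separated in the same way, and Psmb2 and Psmd8 in the opposite way. The share of all genes so separated was not computed, so these separations cannot be set against what genes in general show. Across members the median was 0.07. Under treatment 0 members differed between genotypes (3 at an unadjusted p under 0.05, 0 by DESeq2), against 1.58% of all genes, with a median of -0.01.

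Translation efficiency, the change in footprints relative to the change in RNA of the same mouse, was tested in the 12 mice with both libraries. edgeR called 0 of 45 members in each of the 5 comparisons. The counts at an unadjusted p under 0.05 were 5 for treatment in sgScramble, 1 for treatment in sgOgfod1, 4 for genotype under vehicle, 1 for genotype under treatment and 0 for the interaction, and DESeq2 called 2, 0, 0, 1 and 1. Over all 28606 genes tested, 0.93%, 0.0839%, 0.0594%, 0.0489% and 0.0% were called in the same order. Between genotypes the members' median log2 difference was -0.08 under vehicle and -0.11 under treatment, against 0.05 and 0.13 over all genes tested. It was below 0 for 32 and 31 of 45 members. With treatment the members' median log2 change was -0.02 in sgScramble and 0.00 in sgOgfod1, against 0.01 and 0.05 over all genes tested. With DESeq2 size factors in place of TMM the members' treatment medians became 0.05 and -0.06, so no direction can be given. Values for Psmd14 were 0.12 ± 0.12 (SE; adjusted p = 0.81) and -0.18 ± 0.14 (SE; adjusted p = 1), for Psmc1 -0.09 ± 0.14 (SE; adjusted p = 0.9) and -0.09 ± 0.16 (SE; adjusted p = 1), and for Psma2 0.13 ± 0.16 (SE; adjusted p = 0.87) and -0.11 ± 0.19 (SE; adjusted p = 1). Among members the lid subunit Psmd3 had the lowest value in sgScramble, -0.41 ± 0.14 (SE; adjusted p = 0.2). In the same 12 mice, RNA alone gave a median log2 fold change of 0.18 in sgScramble, beside 0.17 for footprints.

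Footprints per kilobase of coding sequence were more even across subunits of a particle than RNA per kilobase of exon. Within the core, the 14 constitutive subunits spanned 2.78-fold to 4.04-fold from lowest to highest in footprint density and 12.0-fold to 15.5-fold in RNA density, over the 12 mice. With the length of each gene's representative transcript in place of its exons, the RNA range was 5.38-fold to 6.76-fold. The standard deviation of log2 density was 0.414 to 0.52 for footprints and 0.929 to 1.0 for RNA in the core, 0.388 to 0.485 and 0.656 to 0.821 in the 17 cap subunits, and 0.253 to 0.584 and 1.25 to 1.53 in the 7 assembly factors. Part of the difference lies in the length used: dividing RNA by the representative transcript of each gene, a choice made after seeing the data, gave standard deviations of 0.782 to 0.873, 0.495 to 0.65 and 0.742 to 1.0, still above the footprint range in every case. RNA counts over the whole transcript and footprints over the coding sequence also differ in library chemistry, and this comparison has no test.

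Densities followed the particle in both assays. Median density per mouse was 120.7 to 151.1 footprint CPM per kilobase for the core, 55.2 to 77.6 for the cap and 21.3 to 26.5 for the assembly factors. The order was the same in RNA, at 69.9 to 103.7, 42.7 to 66.2 and 25.0 to 43.8 CPM per kilobase of exon. In the vehicle sgScramble mice, Psma6, Psma2 and Psma1 had the highest mean footprint densities of the core, 199.1, 197.1 and 185.2 CPM per kilobase (n = 3). Psmb6 was lowest, 68.3 CPM per kilobase, with the limit that its pseudogenes may hold reads of it, and it was lowest in all 12 mice. Psmd14 had the highest density of the cap in all 12 mice (mean 96.1 in vehicle sgScramble), Psmd3 the lowest in 9 and Psmd1 in 3. In RNA the gene with the highest density of the core depended on the length used: it was Psma6 per kilobase of exon (mean 330.6 CPM per kilobase in vehicle sgScramble), and Psma1 per kilobase of representative transcript in the same 3 mice (459.2, 357.9 and 423.2 CPM per kilobase). Of the assembly factors, Psmg4, a core chaperone, was lowest in footprint density in all 12 mice (mean 14.9 CPM per kilobase in vehicle sgScramble). Psme4 was at 6.09 and Psme1 at 139.7 footprint CPM per kilobase, and the uncertain near-copies Psme2 and Psme2b at 77.6 and 64.3, beside 46.8 and 6.69 RNA CPM per kilobase.

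**Figure D4:**
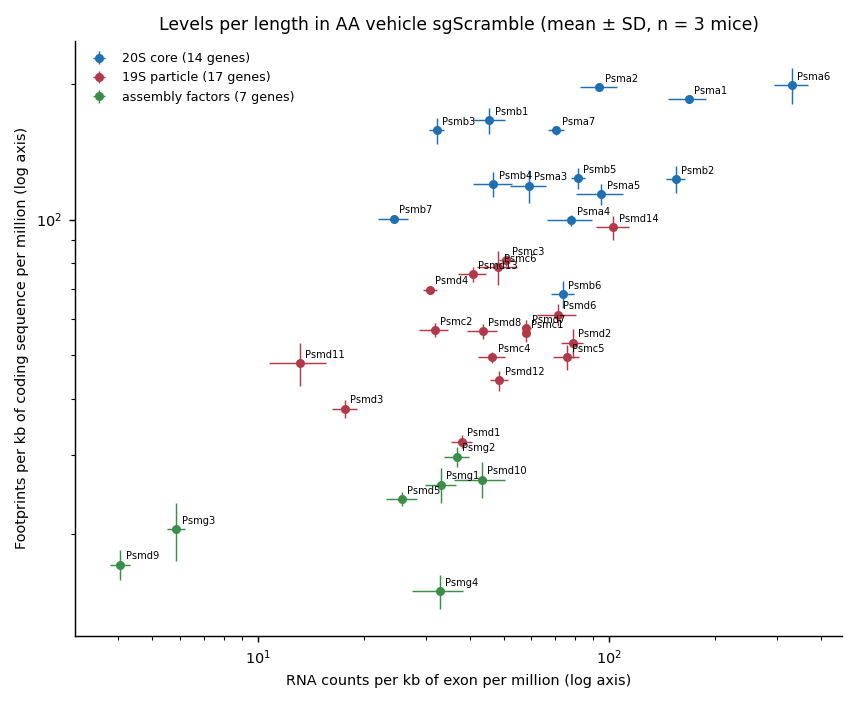
Footprint CPM per kilobase of coding sequence against RNA CPM per kilobase of exon for core, cap and assembly genes, means of the 3 vehicle sgScramble mice with both assays, on logarithmic axes. Core genes lie between 68.3 and 199.1 in footprint density while their RNA density runs from 24.4 to 330.6.

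Summed over the particle, the core of vehicle sgScramble leukemia took 0.316 ± 0.0196% (SD, n = 5) of protein-coding RNA counts, and that of vehicle sgOgfod1 leukemia 0.346 ± 0.0255% (n = 5). With treatment the core took 0.374 ± 0.0512% (n = 7) for sgScramble and 0.404 ± 0.0854% (n = 6) for sgOgfod1. The cap took 0.299 ± 0.0134%, 0.337 ± 0.0216%, 0.366 ± 0.0366% and 0.378 ± 0.0623% for vehicle sgScramble, vehicle sgOgfod1 and the 2 treated groups in that order. Both sums were highest in treated groups on average, and their spread was widest there, with the core at 0.469% in treated sgScramble replicate 4 and 0.553% in treated sgOgfod1 replicate 3. Of protein-coding footprints, the core took 0.265 ± 0.0164% (SD, n = 3), 0.286 ± 0.0113% (n = 3), 0.298 ± 0.0086% (n = 4) and 0.291 ± 0.0271% (n = 2), and the cap 0.25 ± 0.0139%, 0.295 ± 0.0109%, 0.287 ± 0.0125% and 0.305 ± 0.0275%. For the cap, all 9 footprint libraries of the other 3 groups lay above the 3 vehicle sgScramble libraries. These sums are a description without a test.

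**Figure D5:**
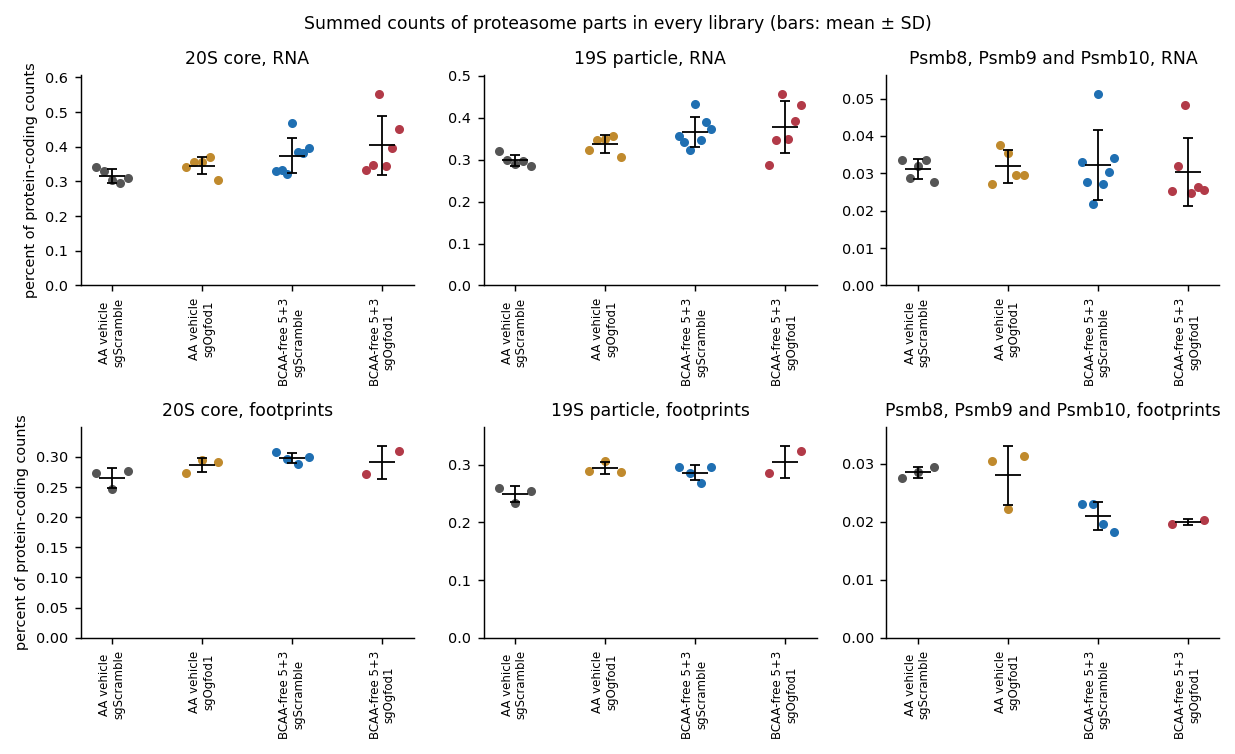
Share of protein-coding counts taken by the 20S core, the 19S cap and the immunoproteasome subunits Psmb8, Psmb9 and Psmb10 in each library, in RNA (top) and footprints (bottom), with mean and standard deviation in percent. Core and cap RNA shares are higher on average in treated groups with wide spread, and the immunoproteasome share of footprints falls from about 0.0285% in vehicle to 0.021% in treated sgScramble.

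Of the 3 immunoproteasome subunits, which replace the catalytic subunits in immune and interferon-exposed cells, Psmb9 and Psmb10 were lower in footprints of treated mice. Psmb9 was at 22.6, 21.9 and 20.7 CPM in vehicle and at 11.8, 14.4, 13.2 and 13.2 CPM in treated sgScramble, a log2 fold change of -0.72 ± 0.13 (SE; adjusted p = 0.0015). Psmb10 was at 29.5, 34.7 and 35.9 and 23.8, 25.7, 20.3 and 18.6 CPM (-0.59 ± 0.16 SE, adjusted p = 0.019). Both fell without overlap, and both also fell in sgOgfod1, at -0.64 ± 0.15 (SE; adjusted p = 0.016) for Psmb9 and -0.89 ± 0.19 (SE; adjusted p = 0.01) for Psmb10. Psmb8 gave -0.28 ± 0.13 (SE; adjusted p = 0.17) and -0.25 ± 0.16 (SE; adjusted p = 0.37). Over all genes tested, footprints of 7.44% were lower in sgScramble and of 3.56% in sgOgfod1. In RNA 0 of the 3 passed in either genotype, with -0.03 for Psmb9, 0.33 for Psmb10 and 0.31 for Psmb8 in sgScramble. These RNA values include treated sgScramble replicates 4, 6 and 7, which have no footprints. There the 3 genes took 0.051%, 0.030% and 0.034% of protein-coding RNA counts. In treated sgScramble replicates 1, 2, 3 and 5, with footprints, they took 0.033%, 0.028%, 0.022% and 0.027%. The vehicle sgScramble replicates 2, 3 and 5 were at 0.029%, 0.032% and 0.028%. Their translation efficiency did not pass either, at -0.41 ± 0.17 (SE; adjusted p = 0.33) for Psmb9 and -0.55 ± 0.18 (SE; adjusted p = 0.19) for Psmb10.

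Of 9 tested genes whose products work with the proteasome without bearing its name, 3 rose in RNA in sgScramble: Adrm1, a ubiquitin receptor of the cap (log2 fold change 0.58 ± 0.17 SE, adjusted p = 0.024), Uchl5, the deubiquitinase it recruits (0.51 ± 0.15 SE, adjusted p = 0.029), and Pomp, the maturation factor of the core (0.62 ± 0.19 SE, adjusted p = 0.036). In footprints 4 rose: the deubiquitinases Usp14 (0.55 ± 0.10 SE, adjusted p = 0.0026) and Uchl5 (0.40 ± 0.11 SE, adjusted p = 0.022), the small lid subunit Sem1 (0.51 ± 0.12 SE, adjusted p = 0.0078) and Pomp (0.32 ± 0.10 SE, adjusted p = 0.039). In sgOgfod1, Uchl5 rose in RNA (0.60 ± 0.16 SE, adjusted p = 0.016) and in footprints (0.45 ± 0.13 SE, adjusted p = 0.039), Usp14 rose in footprints (0.42 ± 0.12 SE, adjusted p = 0.043), and the adaptor Ecpas fell in RNA (-0.91 ± 0.22 SE, adjusted p = 0.0099). Pomp in sgOgfod1 was at 0.42 in RNA and 0.07 in footprints, neither past the threshold. Over all genes tested, 8.6% were higher in sgScramble RNA and 8.12% in sgScramble footprints. In sgOgfod1, 5.69% were higher in RNA and 4.65% in footprints, and 4.18% were lower in RNA. This list and those that follow were not refitted under the alternatives used for the members.

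Among genes of ubiquitin and its activation, the polyubiquitin gene Ubb (1.08 ± 0.29 SE, adjusted p = 0.016) and the activating enzyme Uba1 (0.35 ± 0.11 SE, adjusted p = 0.038) rose in sgScramble RNA, and the alternative enzyme Uba6 fell (-0.69 ± 0.22 SE, adjusted p = 0.04). None of these 3 passed in sgScramble footprints. Ubb encodes repeats of ubiquitin, so reads inside the repeats may not be assigned to the right gene. Of 13 shuttle factors and the segregase Vcp with its partners, Vcp (0.48 ± 0.14 SE, adjusted p = 0.027), Ufd1 (0.43 ± 0.13 SE, adjusted p = 0.027) and Zfand5 (0.51 ± 0.16 SE, adjusted p = 0.032) rose in sgScramble RNA. In sgScramble footprints Ufd1 rose (0.40 ± 0.10 SE, adjusted p = 0.013), while the shuttle Ubqln4 (-0.73 ± 0.16 SE, adjusted p = 0.0053) fell. In sgOgfod1 Ufd1 RNA rose (0.45 ± 0.13 SE, adjusted p = 0.032) and Ubqln2 footprints fell (-0.60 ± 0.18 SE, adjusted p = 0.046). Of all genes tested, 8.6% were higher and 4.34% lower in sgScramble RNA, and 8.12% and 7.44% in sgScramble footprints. In sgOgfod1, 5.69% were higher in RNA and 3.56% lower in footprints.

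Nfe2l1 itself had log2 fold changes of -0.16 ± 0.22 (SE; adjusted p = 0.7) in sgScramble RNA, -0.39 ± 0.23 (SE; adjusted p = 0.3) in sgOgfod1 RNA and -0.23 ± 0.13 (SE; adjusted p = 0.25) in sgScramble footprints. Of 8 genes in its control, 1 rose in sgScramble RNA, the small Maf partner Mafk (0.52 ± 0.16 SE, adjusted p = 0.032), and 0 passed in sgOgfod1 RNA. Over all genes tested with treatment in sgScramble, 8.6% were higher in RNA and 7.44% lower in footprints. In translation efficiency 0.93% were called in either direction. Keap1, the adaptor that holds Nfe2l2 low, fell in sgScramble footprints (-0.55 ± 0.12 SE, adjusted p = 0.0058) and in translation efficiency (-0.68 ± 0.13 SE, adjusted p = 0.02). Among the shuttles, Ubqln4 was also lower in translation efficiency (-0.90 ± 0.17 SE, adjusted p = 0.017). RNA levels of a factor do not measure its activity, and Nfe2l1 is controlled largely after translation.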

How the data were processed

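RNA was measured in 23 and ribosome footprints in 12 libraries of 4 groups. The authors deposited raw counts per gene for each library. The tools were STAR, featureCounts, Bowtie2, SAMtools and cutadapt with GRCm38/mm10, as listed in and credited to the submitters' processing notes. Versions, the handling of strand and of reads that match several places, and the annotation release are not given in the sources used here. Per the labels' protocols, RNA libraries followed Smart-seq2, which keeps no strand and no molecular identifiers, so genes that overlap cannot be told apart. Gene names and coordinates come from GENCODE M21, which named all but 260 of 55487 genes.

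Genes were filtered with filterByExpr, scaled by TMM and tested with edgeR's quasi-likelihood test (edgeR 4.0.16, limma 3.58.1, R 4.3.3) over all 4 groups, with p-values adjusted by Benjamini-Hochberg over all genes tested and calls at 0.05. CPM use TMM-scaled library sizes. Residual degrees of freedom were 19 for RNA, 8 for footprints and 8 for translation efficiency, which was the assay-by-group term with the mouse as a block in 12 mice. DESeq2 1.42.0 was an alternative. Tests were checked on simulated data with changes larger than those of any member, independent libraries and a smaller spread than in the RNA fit. That check does not show how well changes of the members' size are recovered. Values per kilobase, shares and motifs were computed in Python 3.11.15 (pandas 2.3.3). Of 40 further pathway genes 39 matched by symbol, and results of some of them are not reported here.

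The members and lists were chosen with earlier results of these data known. Named with values were up to 8 members per direction and comparison with the smallest p among those called, the catalytic subunits, Psmd14, the activators, Psmf1, Psma8, Psmb11 and Psmc3ip, up to 4 called genes of each other list, and Nfe2l1, Pomp and Psmb8, Psmb9 and Psmb10. Members named in one comparison are also given in others. Psmd3 in translation efficiency, Psme2b, and Psmb3 and other genes at the ends of the density ranges were added after their values were seen. So were members named in footprints only because their groups did not overlap.

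Groups hold different mice. For that reason replicate numbers were not treated as pairs, and a replicate block was an alternative. Same-numbered libraries of different groups deviated together in 5 of 31 RNA pairs (correlation over 0.1; range -0.313 to 0.619) and 0 of 11 footprint pairs (-0.0912 to 0.0725). The highest RNA correlation was between vehicle and treated sgScramble replicate 3. No 2 libraries of a group agreed within sampling noise.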

Additional observations from a re-analysis of the deposited data

Results flagged for a closer look

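Of 97 sets of values (a gene or a sum in a group of 4 to 10 libraries), 15 had a single library far from the rest. Chance alone marks about 1 set in 20. The sets share libraries and are not independent, so the count cannot be set against that rate. Most of the 15 were treated sgScramble replicate 4. It was high in the share of coding RNA counts taken by the assembly factors (0.0633%, group median 0.0473%), by the immunoproteasome subunits (0.0513%) and by Psme1 with Psme2 (0.0423%). The same library was high in RNA for Psma3 (441.6 CPM), Psmb2 (424.7 CPM), Psmb5 (157.8 CPM), Psmd12 (279.3 CPM), Psmd14 (596.0 CPM) and Psmd4 (296.2 CPM). Treated sgOgfod1 replicate 3 was high for the immunoproteasome share (0.0484%), Psmb5 (177.2 CPM) and Psmd4 (217.8 CPM). Vehicle sgScramble replicate 1 was high for Psmb5 (93.2 CPM). Vehicle sgOgfod1 replicate 5 was low for Psmb7 (76.2 CPM) and Psmc5 (107.0 CPM). Most of these values belong to the 2 libraries whose removal is given beside the RNA results.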

How the results depend on the processing

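Members called by treatment in sgScramble RNA numbered 15 and were 2 with the replicate block, 1 with a term for library numbers from 17 up and 6 in mice with footprints, and 7 to 26 with single libraries left out. In sgOgfod1 RNA 5 were called, 1 without the count filter, 8 by DESeq2, 1 with the replicate block, 1 with the library number term, 13 without both libraries standing apart, 1 in mice with footprints, and 1 to 16 with single libraries left out. Footprint calls in sgScramble were 11, 7 without the filter, 19 with protein-coding genes alone, 5 with the library number term, 9 with the replicate block and 5 to 12 with single libraries left out. In sgOgfod1 footprints 0 became 1 with DESeq2 and 1 with protein-coding genes alone, and 0 to 2 with single libraries left out. For genotype under vehicle, 1 footprint call became 0 with DESeq2 size factors, 0 without the filter, 0 with the replicate block, 0 with the library number term, 2 by DESeq2, and 0 to 1 with single libraries left out. Translation efficiency calls of 0 became 2 (treatment in sgScramble), 1 (genotype under treatment) and 1 (interaction) by DESeq2, and 0 to 1 for treatment in sgScramble with single mice left out. Other comparisons stayed at 0, and no named member changed direction in RNA or footprints while called. Genes outside the 47 members, among them Psmb8, Psmb9, Psmb10 and the other pathway lists, were not refitted under these alternatives. In RNA the spread of density (SD of log2, median over mice) went from 0.985 to 0.835 for the core, 0.749 to 0.593 for the cap and 1.44 to 0.897 for assembly factors with the representative transcript's length, an alternative chosen after seeing the data.

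The sgOgfod1 footprint comparison holds 2 treated libraries, and Psma8 and Psmb11 had too few counts to test. All treated mice differ from all vehicle mice in both diet and drugs, and library numbers from 17 up occur in treated groups alone, so that numbering and treatment are confounded in part. The labels do not call it a batch. Between groups, replicate numbers do not link the same animals. With the replicate block Psmd14 lost its call in sgScramble RNA (adjusted p = 0.0584) and kept it in sgOgfod1 RNA (0.0335).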
